A study of Homo sapiens with 6 samples.

Results

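EEF1E1, CHD1L and DEPDC5 are human protein-coding genes in which both libraries of the slow-migrating hnRNP A1 band listed a binding site and neither library of the monomeric wild-type protein did. They were chosen on those lists, as 3 of the 5068 genes in which at least 1 library listed a cluster, so the presence of sites in one band and their absence from the other is a description here and was not tested. The lists placed 7 clusters in these genes, out of 16269 in all, and every one of the 7 came from the slow-migrating band. Members were found by overlap of a cluster with the span of the gene on its own strand in the genome build hg19.

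The measurements were PAR-CLIP libraries, in which cells take up a photoreactive uridine analog, irradiation ties the labelled RNA to the protein that binds it, and the RNA pulled down with that protein is sequenced. The cells were HEK293T, a line derived from human embryonic kidney, transiently transfected with myc-tagged wild-type hnRNP A1 or with the R75D/R88D double mutant (A1dm), treated with 4-thiouridine, cross-linked and precipitated with a rabbit polyclonal antibody against the tag. RNA was recovered from the monomeric wild-type band (A1), from a slower wild-type band (A1-HMW, labelled as dimeric complexes by the submitters) and from the monomeric A1dm band, with 2 libraries for each. The tagged proteins were expressed on top of whatever hnRNP A1 the cells make themselves, and no deletion of the endogenous gene is named in the sources used here. The lists hold positions and no expression levels, so the cell line could not be checked against marker genes. The A1 libraries listed 5805 and 8100 clusters, the A1-HMW libraries 671 and 865, and the A1dm libraries 232 and 596. The lists give no read numbers, and a separate table of read numbers per cluster that accompanies the study was not used here, so the depth behind each list is unknown and a site absent from a list cannot be taken as unbound.

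hnRNP A1 is an abundant nuclear protein that coats nascent transcripts through a pair of RNA recognition motifs and is best known for directing splice site choice, often by binding sequences that contain UAG. Intronic binding is therefore a usual place to find it. The 3 genes have no common function. EEF1E1, also called AIMP3 or p18, encodes a scaffold subunit of the multi-tRNA synthetase complex. CHD1L, also called ALC1, encodes a chromatin remodeler of the SNF2 family that is switched on by poly(ADP-ribose) at sites of DNA damage. DEPDC5 encodes a subunit of GATOR1, the complex that holds mTORC1 inactive when amino acids are scarce.

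The sequences of the clusters are shown because they tell which of the 3 genes carried one recurrent site and which carried several separate ones, and because they were not used to choose the genes. Each is the reference sequence of hg19 on the strand of the transcript, 5′ to 3′ with T for U, and capitals mark the longest uninterrupted run of purines (A or G).
EEF1E1 intron 2, A1-HMW replicate 1, chr6:8095013-8095040, minus strand: gagtaggctAAGGAGGAGGAAGAAGAGc
EEF1E1 intron 2, A1-HMW replicate 2, chr6:8093630-8093655, minus strand: gatGGAAGGAAAAAGAAAAAtcaggt
EEF1E1 intron 3, A1-HMW replicate 2, chr6:8086555-8086577, minus strand: agttgaggttGAAGAGAGAAGAc
CHD1L intron 14, A1-HMW replicate 1, chr1:146748770-146748790, plus strand: GAGGAGAGAAGAAAGGAAAAt
CHD1L intron 14, A1-HMW replicate 2, chr1:146748767-146748790, plus strand: gatGAGGAGAGAAGAAAGGAAAAt
DEPDC5 intron 27, both A1-HMW replicates, chr22:32237728-32237745, plus strand: GAAAAAGcggagagtggt

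CHD1L and DEPDC5 each carried the same site in both A1-HMW libraries, and EEF1E1 did not. In CHD1L the replicate 1 cluster of 21 nucleotides lay wholly inside the replicate 2 cluster of 24 nucleotides, and the pair differed only by 3 nucleotides at the 5′ end. Both ended on the same T, the last base printed above. In DEPDC5 the clusters were identical in start and end, 18 nucleotides long, with T at positions 15 and 18 counted from 1 at the 5′ end. In EEF1E1 replicate 1 listed 1 cluster and replicate 2 listed 2, and none of the 3 overlapped another. The closest EEF1E1 clusters of different replicates lay 1358 nucleotides apart in the same intron, and the intron 3 cluster lay 7053 and 8436 nucleotides from the others. EEF1E1 was thus recurrent as a gene and not as a site. For comparison, 116 of the 161 genes with a cluster in both A1-HMW libraries shared at least 1 site between them, a background of 72.0% (Wilson interval 64.7 to 78.4%, which covers counting error only).

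**Figure D1:**
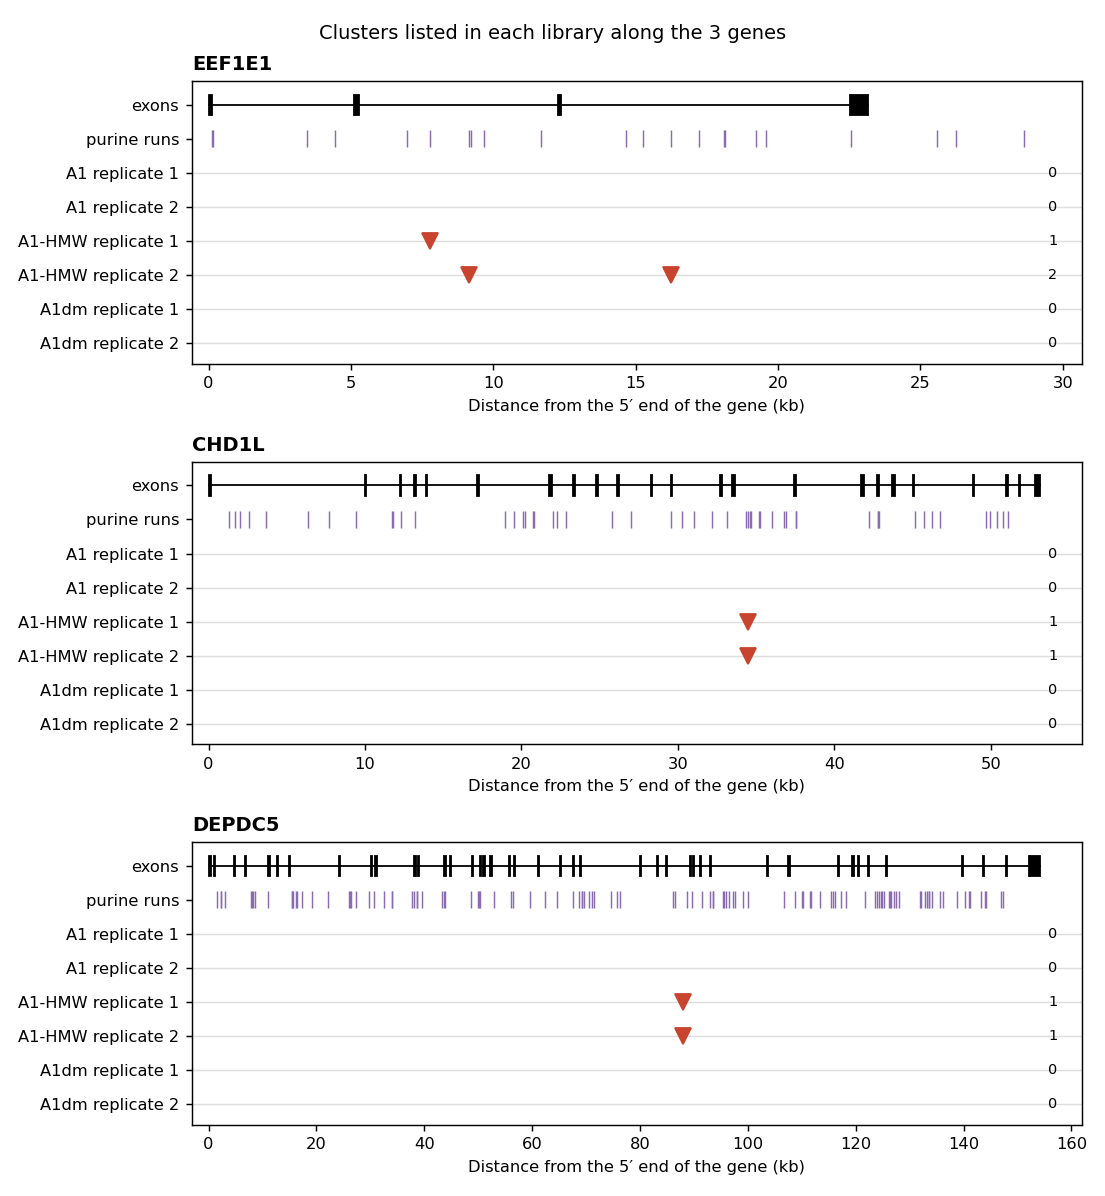
Each panel runs along 1 gene from its 5′ end (horizontal axis, kb), with exons of the MANE Select transcript as black boxes, purine runs of at least 12 nucleotides on the gene's strand as purple ticks, and the clusters of each library as triangles in the library's row, with their number at the right. The A1-HMW triangles stand above each other in CHD1L and DEPDC5 and at 3 separate places in EEF1E1, and the A1 and A1dm rows hold 0 clusters.

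All 7 clusters were intronic, and none touched an exon of any annotated transcript of its gene. In its own peaks, which are not these lists, the paper reports most monomeric A1 peaks in introns and a similar intron enrichment for A1-HMW. The intronic share over all clusters of the lists used here is not given, so the position cannot be called particular to these genes. EEF1E1 (ENSG00000124802, chromosome 6 from 8073593 to 8102792, minus strand) is 29.2 kb long, and its MANE Select transcript has 4 exons. Its intron 2, of 6985 nucleotides, held the replicate 1 cluster 2460 nucleotides downstream of the preceding exon and a replicate 2 cluster 3845 nucleotides downstream of it. The other replicate 2 cluster lay in intron 3, of 10155 nucleotides, 3842 nucleotides past the exon before it. Counting exons of every EEF1E1 transcript, the nearest exon was 571, 1956 and 3610 nucleotides away. CHD1L (ENSG00000131778, chromosome 1 from 146714304 to 146767446, plus strand) is 53.1 kb long with 23 exons. Its site lay in intron 14 of 22, which is 3777 nucleotides long, with the upstream exon 849 or 846 nucleotides and the downstream exon 2909 nucleotides away. DEPDC5 (ENSG00000100150, chromosome 22 from 32149853 to 32304019, plus strand) is 154 kb long with 43 exons. Its site lay in intron 27 of 42, of 4249 nucleotides, 2897 nucleotides past the upstream exon and 1336 nucleotides before the downstream one. Along the genes the sites stood at 26.5, 31.3 and 55.5% of the length of EEF1E1, at 64.9% of CHD1L and at 57.0% of DEPDC5.

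Each gene shares its strand with a longer annotated transcript unit, so the RNA that was bound could not be told apart by position. The EEF1E1 clusters also lay in a readthrough gene, EEF1E1-BLOC1S5. The CHD1L site also lay within ENSG00000237188, a noncoding RNA gene that starts upstream of CHD1L and ends near its 3′ end, and opposite LINC00624 on the other strand. The DEPDC5 site also lay within ENSG00000285404, a protein-coding unit that runs on past the end of DEPDC5. DEPDC5 holds RNU6-201P and RN7SL20P, annotated copies of small RNAs, on its own strand, and neither had a cluster in any library.

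Clusters of the monomeric proteins lay far from these sites. The nearest A1 cluster to the EEF1E1 sites was in replicate 2, in an intron of BLOC1S5, the next gene downstream, on chromosome 6 from 8056270 to 8056300. It was 30.3 kb from the intron 3 cluster and 37.3 and 38.7 kb from those in intron 2. It also falls inside the span of EEF1E1-BLOC1S5, so the readthrough unit as a whole was not free of A1 clusters. In A1 replicate 1 the nearest cluster was intergenic and lay 208 to 217 kb away. For DEPDC5 the nearest A1 clusters were both in introns of SFI1, a centrosomal protein gene upstream, 270 kb away in replicate 1 and 224 kb away in replicate 2. For CHD1L they were both in introns of RNF115, a ubiquitin ligase gene, 1107 kb away in replicate 1 and 1102 kb away in replicate 2. Within 100 kb of the ends of the genes, on the same strand, the A1 libraries listed 0 and 1 clusters around EEF1E1, 0 and 0 around CHD1L and 0 and 0 around DEPDC5. Even within 1 Mb, both A1 libraries listed 0 clusters around CHD1L, against 3 and 5 around EEF1E1 and 5 and 11 around DEPDC5. The lack of clusters around CHD1L was not confined to A1. Within 1 Mb on that strand the A1-HMW libraries listed only the site itself, and both A1dm libraries listed 0 clusters. The nearest antisense A1 clusters were closer in part, 196 kb from the CHD1L site and 99.8 kb from that in DEPDC5.

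A1dm clusters were farther still. From DEPDC5 the nearest was 468 kb away in replicate 2, between genes, and 867 kb away in replicate 1, in an exon of the noncoding RNA TUG1. From the CHD1L site the distances were 4.42 Mb in replicate 2 (PIP5K1A) and 7.25 Mb in replicate 1. From the EEF1E1 sites they were 2.93 to 2.94 Mb in replicate 2 (LYRM4) and 30.4 Mb in replicate 1 (BTBD9). On either strand the nearest A1dm cluster to the EEF1E1 sites was 690 to 698 kb away. The A1dm lists are the shortest of the 3 groups, and the part of their length in these distances was not tested.

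**Figure D2:**
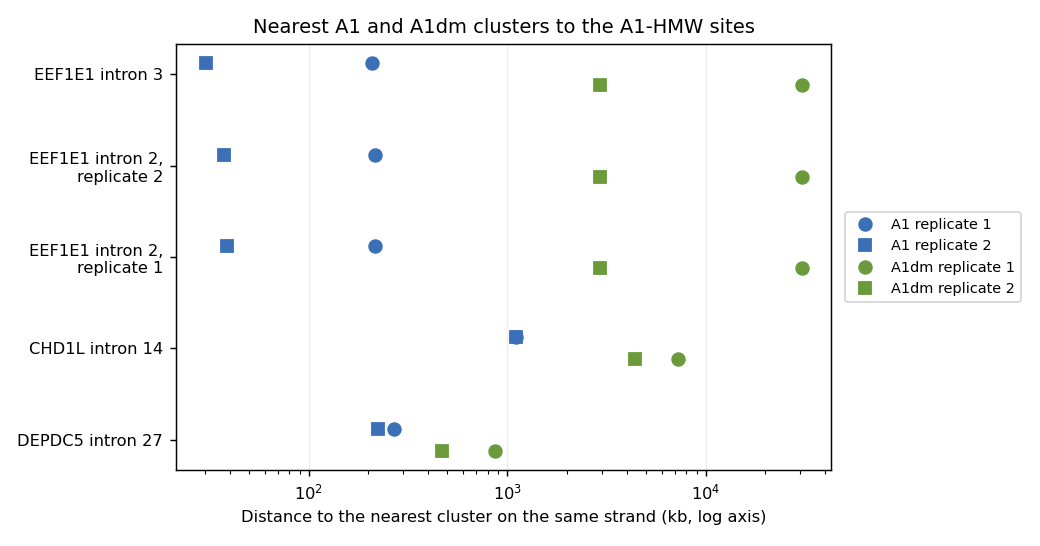
Distance from each A1-HMW site (rows) to the nearest cluster on the same strand in the A1 libraries (blue) and the A1dm libraries (green), in kb on a log axis, with replicate 1 as circles and replicate 2 as squares. The shortest distance is 30.3 kb, from EEF1E1 intron 3 to A1 replicate 2, and both A1 replicates lie more than 1 Mb from the CHD1L site.

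Such distances were held by a minority of all A1-HMW clusters and were not confined to these genes. The rule itself shut out any site that overlaps an A1 cluster. In the A1-HMW libraries 70.5 and 70.2% of all clusters overlapped an A1 cluster, and 17.6 and 18.4% lay more than 30 kb from one on the same strand, as did those in EEF1E1. These limits were set after the distances of the members were seen. More than 200 kb away, as in DEPDC5, lay 6.86 and 7.51%, and more than 1 Mb away, as in CHD1L, lay 3.43 and 2.43%. Among A1-HMW clusters that overlapped no A1 cluster, the median distance was 43333.5 nucleotides in replicate 1 and 47563 in replicate 2. The EEF1E1 sites lay closer than these medians, and the DEPDC5 and CHD1L sites lay farther. Of the 139 regions found in both A1-HMW libraries, 11 had no A1 cluster of either replicate, a background of 7.91%. The CHD1L site was the farthest of the 11 from an A1 cluster and the DEPDC5 site the fourth farthest. An A1dm cluster overlapped 2 of the 11, neither of them in CHD1L or DEPDC5.

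The genes stood apart from most genes bound in the slow band by definition, and the counts around the rule show how narrow it is. Of the 161 genes with a cluster in both A1-HMW libraries, 4 had none in A1 (2.48%), which is 0.0789% of the 5068 genes. The fourth was ENSG00000291338, an unnamed locus of unsettled type that overlaps others of its kind, where both A1-HMW libraries listed the same site. The median number of A1 clusters over the 161 genes was 3, and the highest was 24. Just outside the rule stood genes with a single A1 cluster, among them RWDD2A, ANKRD30BL and SNRPB, which encodes a core spliceosome protein, named after their values were seen. These had it in replicate 2. Each of them also had a cluster in an A1dm library, whereas EEF1E1, CHD1L and DEPDC5 had none in either. A further 156 genes had clusters in 1 A1-HMW library and none in A1.

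**Figure D3:**
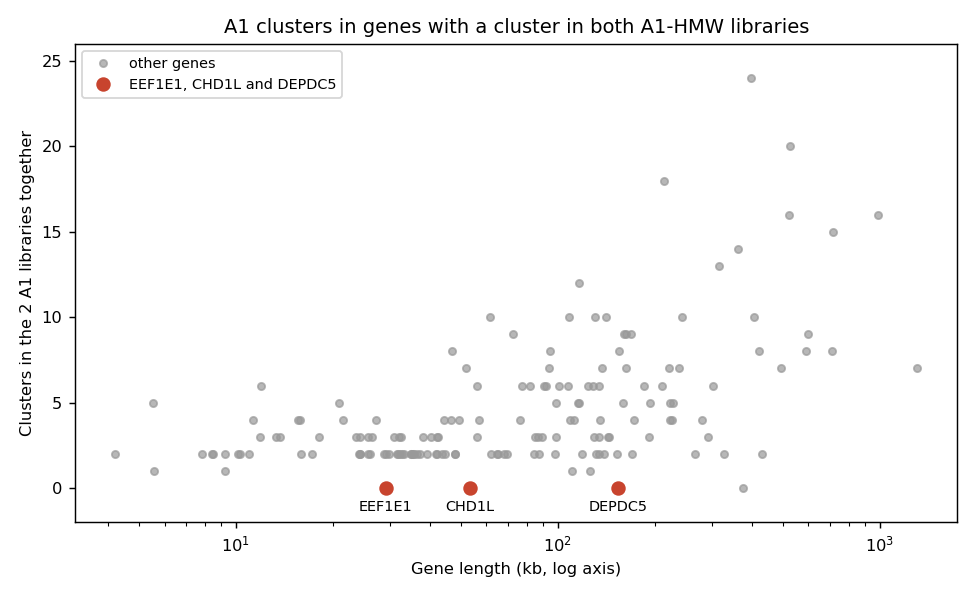
Number of clusters in the A1 libraries together (vertical axis) against gene length (kb, log axis) for the 161 genes with a cluster in both A1-HMW libraries. EEF1E1, CHD1L and DEPDC5 (red) lie at 0, as the rule requires, at lengths of 29.2, 53.1 and 154 kb. Other genes of like length had A1 clusters, many of them few, and the grey point at 0 is the fourth gene.

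Having no A1 cluster was in itself common among annotated protein-coding genes at least as long as these. Of the 9686 protein-coding genes at least as long as EEF1E1, 6376 (65.8%) had no cluster in either A1 library. The corresponding numbers were 3901 of 6432 (60.6%) for CHD1L and 1119 of 2142 (52.2%) for DEPDC5. A cluster in both A1-HMW libraries was rare, at 1.21, 1.32 and 1.73% of these genes. All of these shares count genes whether or not the cells express them, which the lists do not show.

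The CHD1L and EEF1E1 sites held a run of at least 12 purines, as most A1-HMW clusters did, and the DEPDC5 site did not. The EEF1E1 intron 3 site only just reached that limit. In overall purine content the EEF1E1 and DEPDC5 sites lay in the low part of the A1-HMW range. A run of at least 12 purines was present in 566 of 670 clusters with a reference sequence in A1-HMW replicate 1 (84.5%, Wilson interval 81.5 to 87.0%) and in 752 of 864 in replicate 2 (87.0%, interval 84.6 to 89.1%). The longest run was 20 nucleotides in both CHD1L clusters. It was 18 and 17 nucleotides in the EEF1E1 intron 2 clusters of replicates 1 and 2, and 12 in the intron 3 cluster. In DEPDC5 it was 7 nucleotides, and 8.47% of all A1-HMW clusters had a run no longer than that. For the other sites the share of A1-HMW clusters with a run no longer than theirs was 75.6% (CHD1L), 52.7, 40.9 and 15.3% (EEF1E1). Purines made up 95.2 and 91.7% of the CHD1L clusters, against a median of 90.5 and 90.9% in the A1-HMW libraries. They made up 85.7, 84.6 and 78.3% of the EEF1E1 clusters and 83.3% of the DEPDC5 clusters, below the median in each. The EEF1E1 intron 3 cluster was the poorest in purines, and 9.52% of A1-HMW clusters had a purine content no higher than that.

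**Figure D4:**
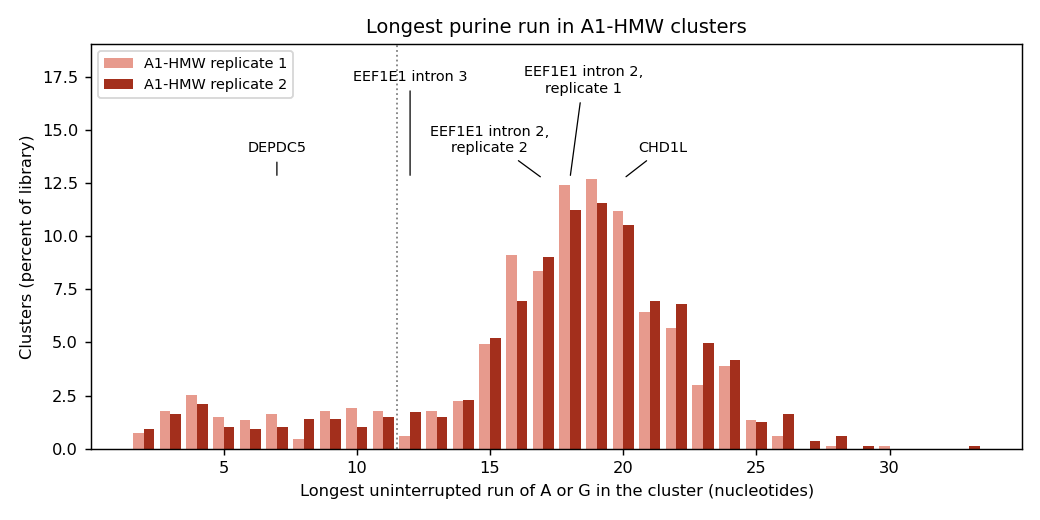
Share of clusters (percent of each A1-HMW library, bars) by the longest uninterrupted run of A or G in the cluster (nucleotides), with the 12-nucleotide limit as a dotted line and the member sites marked. DEPDC5, at 7 nucleotides, lies left of the limit, EEF1E1 intron 3 lies at 12, and the CHD1L and EEF1E1 intron 2 sites lie between 17 and 20, around the tallest bars.

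Set against the genes themselves, purine-rich stretches were scarce and most of them carried no cluster. The transcript strand of EEF1E1 held 22 separate purine runs of at least 12 nucleotides, that of CHD1L 52 and that of DEPDC5 114. Clusters sat on 3, 1 and 0 of them. The CHD1L run of 20 was exceeded by 4 other runs of that gene, the longest of 36 nucleotides. The EEF1E1 runs of 18 and 17 were exceeded by 3 and 4 others, and its run of 12 was among the shortest counted. In DEPDC5 the nearest run of at least 12, which was 23 nucleotides long, began or ended 817 nucleotides from the site. Over every window of the cluster's own length in the gene, 1.53% (EEF1E1, 28 nucleotides), 1.53% (CHD1L, 24 nucleotides) and 0.885% (DEPDC5, 18 nucleotides) held such a run. Windows as rich in purines as the cluster made up 0.374, 0.213 and 1.78% of these. The matching shares for the EEF1E1 clusters of replicate 2 were 0.607% in intron 2 and 2.60% in intron 3.

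Each pair of distinct sites had a word of at least 4 letters in common, and those of 7 letters or more are given here, with 1 of 6 letters. GAGAGAAGA, present in CHD1L and in EEF1E1 intron 3, was found on the transcript strand in 1.49 and 1.97% of the A1-HMW clusters. AAGGAAAA, present in CHD1L and in the EEF1E1 intron 2 cluster of replicate 2, was found in 5.97 and 3.59%. GAAAAAG, present in DEPDC5 and in that same EEF1E1 cluster, was found in 5.22 and 6.71%. GGAGAG, present in CHD1L and DEPDC5, was found in 19.6 and 25.6%. GAGGAA was present only in the EEF1E1 cluster of replicate 1 among the members, against 30.1 and 34.3% of A1-HMW clusters. TAGG, which holds the UAG of known hnRNP A1 motifs, was present in that same cluster and in none of the others, against 5.67 and 4.28% of A1-HMW clusters. GAGGAA and TAGG were searched on the transcript strand alone and do not overlap each other in that cluster.

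The cluster sequences were found once each in the autosomes and sex chromosomes of hg19 without a mismatch. With 1 mismatch allowed, on either strand, the EEF1E1 cluster of replicate 1 had 1 further match and those of replicate 2 had 0. The shorter CHD1L cluster had 9 and the longer one 0, and the DEPDC5 cluster had 2. None of these further matches overlapped a cluster of any library. Reads can be longer than the clusters, so these numbers describe the printed letters and not the mapping.

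EEF1E1 belongs to the multi-tRNA synthetase complex, which joins aminoacyl-tRNA synthetases and scaffold proteins. Of its 11 members, EEF1E1 included, 6 had an A1 cluster (54.5%), 3 an A1-HMW cluster and 3 an A1dm cluster, against 20.7, 4.25 and 2.61% of all 20163 protein-coding genes. The A1-HMW count includes EEF1E1 itself, which was chosen for its clusters there. Cluster numbers rise with gene length, for which these shares were not adjusted. MARS1, the methionyl-tRNA synthetase, had 1 and 2 clusters in A1, 1 and 1 in A1-HMW and 0 and 1 in A1dm, and 5 of its 6 clusters were exonic. IARS1, the isoleucyl-tRNA synthetase, had 1 cluster in replicate 1 of both A1 and A1-HMW. The scaffold AIMP1 and the synthetases EPRS1 and LARS1 had 1 cluster in each A1 library and none in A1-HMW. In 4 members no library listed a cluster.

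Among CHD-family remodelers and the poly(ADP-ribose) enzymes and repair factors that work with CHD1L, 9 of 15 genes had an A1 cluster (60.0%), 5 an A1-HMW cluster and 2 an A1dm cluster, beside the same 20.7, 4.25 and 2.61% of all protein-coding genes. The 5 include CHD1L itself, which was chosen for its A1-HMW clusters. Gene length was not adjusted for here either, and several genes of this list are long. Of all protein-coding genes at least as long as CHD1L, 60.6% had no A1 cluster. The shares over all protein-coding genes also take in genes that the cells may not express. CHD1, the nearest namesake of CHD1L, had 2 and 4 clusters in A1, 1 and 0 in A1-HMW and 0 and 1 in A1dm. CHD2 had 3 and 3, 0 and 1, and 0 and 1 in the same order. CHD6 and CHD9, with genes of 216 and 274 kb, had 3 and 2 and 2 and 2 clusters in A1 and a single A1-HMW cluster each, in replicate 1. CHD7 had 2 and 2 in A1 alone. PARP1, which makes the poly(ADP-ribose) that CHD1L binds, had 1 cluster, in A1 replicate 1.

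In the amino acid branch of the mTORC1 pathway, A1 clusters were present in 12 of 34 genes (35.3%, against 20.7% of all protein-coding genes). An A1-HMW cluster was present in 1 (2.94%, against 4.25%), which was DEPDC5, chosen for it. An A1dm cluster was present in 1, and 21 genes had no cluster in any library. These shares, too, were not adjusted for gene length or expression. SEC13, a subunit of GATOR2, which counters GATOR1, had 1 and 3 clusters in A1 and 1 in A1dm replicate 2. RPTOR, the substrate-binding subunit of mTORC1, had 1 and 2 A1 clusters over 422 kb. LAMTOR4, of the lysosomal Ragulator complex, had 1 and 2, and TSC2, an inhibitor of mTORC1, had 2 and 1. NPRL2 and NPRL3, the other GATOR1 subunits, are named here for that role after their values were seen, and had 0 clusters.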

How the data were processed

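In the authors' methods, adapter trimming used BBduk, ribosomal reads were set aside and STAR aligned the rest, whereas Bowtie is the aligner listed, with hg19, in the submitters' processing notes. Per the file headers, the deposited lists were wavClusteR clusters of single libraries annotated by HOMER, with Ensembl genes. The paper names wavClusteR for base changes in the reads and PARalyzer as the tool that generated its peaks. It reports more peaks for each of the 3 groups than the lists used here hold. Absence of a cluster from these lists is therefore not absence from the peaks of the paper, which were not used here. The deposited score was 0 for all clusters and was not used. Tool versions are not given in the sources used here. The start in each cluster's identifier, 1 nucleotide before the listed start, was used, since 100% of clusters with a reference sequence then held a T, against 94.7 to 98.0% as listed.

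Clusters were assigned by strand to GENCODE release 44 lifted to hg19, 1 gene each, with priority to exons over introns and to protein-coding genes over the rest. Introns were numbered on the MANE Select transcript. Overlap meant at least 1 nucleotide on the same strand, and distances run from edge to edge. Mitochondrial clusters and those outside the assembled chromosomes were given no sequence. Purine runs were 12 or more A or G in a row. Copies were sought in hg19 with up to 1 mismatch. Wilson intervals are at 95%. Python 3.11.15, pandas 2.3.3, scipy 1.17.1 and pysam 0.24.0 were used, after planted clusters were recovered on simulated data.

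The genes and lists were chosen with earlier results of these data known. The genes to be named were the 3 members, genes that overlap or adjoin them, any other gene with clusters in both A1-HMW libraries and none in A1, and, of each list, those with an A1-HMW cluster and up to 4 more with most clusters. Some genes that this rule or a count covers are not reported here. No test was run, since the rule used the same lists and 2 libraries against 2 cannot give an exact two-sided permutation p below 0.33. The labels give replicates without saying whether cultures were separate, and the study describes independent experiments.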

Additional observations from a re-analysis of the deposited data

How the results depend on the processing

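The 7 clusters were the same in number with the start as listed, with either strand and with the annotated spans. EEF1E1, CHD1L and DEPDC5 still met the rule with every gene a cluster lies in and with strand ignored, and leaving out a library can only widen the rule. The number of genes that met it was 5 with every gene a cluster lies in, where ENSG00000291338 dropped out and ENSG00000237188 and ENSG00000285404, which hold the same CHD1L and DEPDC5 sites, came in. It was 5 with strand ignored, and ranged from 6 to 89 when 1 A1 or A1-HMW library was left out. It was 89 without A1-HMW replicate 1, 75 without A1-HMW replicate 2, 6 without A1 replicate 1 and 9 without A1 replicate 2. Regions in both A1-HMW libraries numbered 138 when the overlap had to cover at least 0.5 of the shorter cluster. Those without an A1 cluster numbered 11 with that overlap, 11 with A1 clusters sought within 100 nucleotides, 17 without A1 replicate 1 and 22 without A1 replicate 2. On either strand the nearest A1 cluster was 196136 nucleotides from the CHD1L site and 99809 from that in DEPDC5. Leaving out 1 library of the group, the nearest A1 cluster lay 1102403 to 1107158 nucleotides from CHD1L, 223797 to 269504 from DEPDC5, and 38713 to 216678, 37330 to 215295 and 30255 to 208220 from the EEF1E1 sites. The nearest A1dm cluster lay 4424024 to 7250903 from CHD1L, 468412 to 866906 from DEPDC5, and 2943284 to 30390187, 2941901 to 30391572 and 2934826 to 30398650 from those in EEF1E1. The mean share of A1-HMW clusters with a purine run rose from 85.8% ± 1.81 (SD, n = 2) to 88.9% with runs of 10 and 91.4% with runs of 8, lengths that the DEPDC5 site does not reach. No paired analysis was possible because none of these results comes from a test. Depth is unknown, which limits what absence from a list can show.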

Other observations

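The regions that recurred in A1-HMW without an A1 cluster were poorer in long purine runs than those with one. A run of 12 purines was present in 4 of the 11 regions without an A1 cluster (36.4%, Wilson interval 15.2 to 64.6%) and in 119 of the 128 with one (93.0%, interval 87.2 to 96.3%). Regions with an A1 cluster are A1 sites by construction, and 98.1 and 96.6% of all clusters in the A1 libraries held such a run. Those with a run included the CHD1L site and a site in SYT1, a synaptic vesicle gene, with longest runs of 20 and 18 nucleotides. DEPDC5 was among the 7 without such a run, with a longest run of 7 nucleotides against 4 to 9 in the others. Of the 11 regions 5 were intergenic, against 11 of the 128. The single-cluster distances to A1 went from 132 nucleotides in ANKRD30BL to the 1102 kb of CHD1L. Clusters of A1dm overlapped 2 of the 11 and 46 of the 128. These shares describe the listed regions, and no test was made of them.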
